A study of Caenorhabditis elegans with 12 samples.

Results

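RNA of DG3913 worms, in which *lin-41* is tagged with *gfp* (*gfp::lin-41*), was compared gene by gene with RNA of N2 worms, the wild type. Both samples were young adult *C. elegans*, crosslinked with short-wave UV light without a nucleotide analogue (cXL), and both were the input of an RNA pulldown, taken after lysis and before any probe was added. The pair was taken from 12 sequenced samples as the cXL inputs of these strains, with 1 library a side, so no difference below has a replicate check and no p-value is given. The cXL input of BS1080 (*gld-1::gfp*), another tagged strain of the same stage, was set beside them. *C. elegans* ribosomal RNA had been depleted with RNase H in all 3 libraries, and the entries left for it were removed before levels were computed. Of 46723 annotated genes, 28827 had no count in either library and 5780 were too low to compare, which left 12116 genes with more than 1 TPM (transcripts per 1000000 transcripts) in either library and at least 20 estimated counts over both. A gene was called higher in DG3913 at a TPM ratio of DG3913 over N2 of at least 2 and lower at a ratio of at most 0.5, where the 95% interval of the ratio excluded 1. These intervals cover counting error only, as the reads carry no molecular identifiers and copies made by PCR count like molecules. Whole worms were lysed, so fewer cells of a type and less RNA per cell cannot be told apart. The strain, its tag, its culture and its library cannot be told apart either.

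LIN-41 is a TRIM-NHL protein that binds mRNAs and represses them. It is known as a target of the *let-7* microRNA in the heterochronic pathway, which times the larval-to-adult switch of the epidermis, and for its role in growing oocytes, where it keeps meiotic maturation from starting early. The adult epidermis secretes a cuticle built mostly of collagens, each stage with its own set, and the adult hermaphrodite body is otherwise dominated by germline, intestine and muscle.

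The libraries kept 15360923 estimated counts in DG3913, 12227263 in N2 and 18542857 in BS1080, and 3 counts, the limit that a count of 0 allows, stood for 0.162 to 0.245 CPM (counts scaled to a total of 1000000). In BS1080 a pair of noncoding entries alone took 12.6% of all TPM, which lowers the TPM of every other gene there. Markers of each tissue were present. The 7 yolk genes summed to 23180 TPM in DG3913 and 23401 in N2, the 27 muscle genes to 11508 TPM in DG3913 and 14891 in N2, and the major sperm protein genes to 3491 TPM in DG3913 and 3416 in N2. Early embryonic *end-1* and *end-3* stayed between 0.238 and 1.53 TPM in both libraries, and the male gene *her-1* had 0.614 TPM in DG3913 and 1.56 in N2.

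Most genes had a somewhat higher TPM in DG3913 than in N2, with a ratio above 1 for 79.3%, but the most abundant genes did not. Of the 12116 compared genes, 1872 were called higher in DG3913 (15.5%) and 86 lower (0.710%). The median ratio was 1.33 (log2 0.42), 83.0% of the genes lay within 2-fold, and the R2 of log2 TPM was 0.934 over 11851 genes above 1 TPM in both libraries. With each ratio divided by this median, 699 genes were higher (5.77%) and 286 lower (2.36%), so the split depends on the scaling. The median ratio fell with the level of the gene, being 1.52 for genes of 1 to 2 mean TPM, 1.38 for 20 to 50 TPM, 1.13 for 100 to 200 TPM and 0.864 for the 159 genes over 1000 TPM. The 100 most abundant entries took 32.6% of TPM in DG3913 and 42.2% in N2. As TPM have a fixed total, all other entries together held a larger share in DG3913. The part of this difference in the ratio of any gene was not tested. Against BS1080, 1383 of 12540 genes were higher in DG3913 (11.0%) and 233 lower (1.86%), with a median ratio of 1.31. Between the 2 libraries other than DG3913, 546 of 11941 genes were higher in BS1080 than in N2 (4.57%) and 169 lower (1.42%), with a median of 1.01. These comparisons share libraries and are given only side by side.

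**Figure D1:**
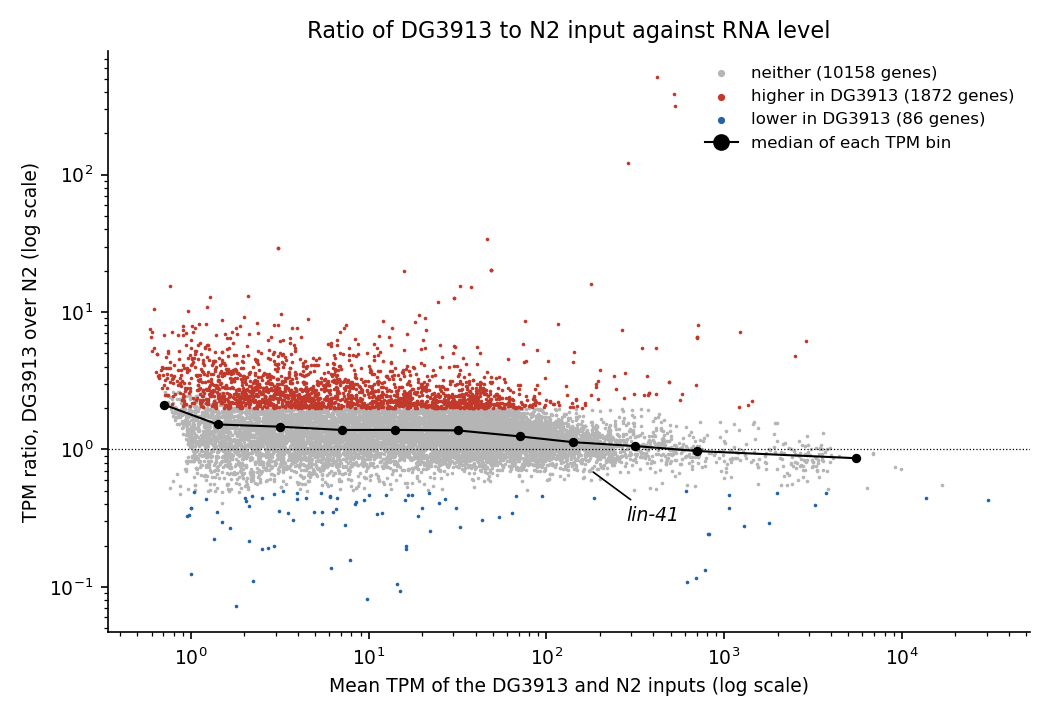
Each point is 1 of 12116 compared genes, with the mean TPM of the DG3913 and N2 inputs on the x axis and the TPM ratio of DG3913 over N2 on the y axis, both on log scales. Coloured points are the 1872 genes called higher and the 86 called lower, and the black line joins the medians of bins of TPM, which run down to 0.864 above 1000 TPM.

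The tagged gene itself was lower in DG3913 than in N2, short of the limit for a call. *lin-41* (WBGene00003026, WBcel235 chromosome I, 9334850 to 9342496, minus strand) had 146 TPM in DG3913, against 205 TPM in N2 and 175 TPM in BS1080. Its ratio of DG3913 to N2 was 0.714 (95% CI 0.695 to 0.734), below the 5th percentile of all compared genes (0.764), and its ratio to BS1080 was 0.838. Divided by the median of all genes, its ratio to N2 was 0.536. All 10729 estimated counts in DG3913 lay on the tagged transcripts and 0 on the untagged ones, which fits the label of DG3913. The index of N2 held no tagged *lin-41*, so its 9686 counts could lie only on untagged transcripts and do not check its label. The tag lengthens each *lin-41* transcript of the index by 930 nt, and TPM allows for this length, so the same counts give a lower TPM. In CPM, which makes no allowance for the longer transcript, the ratio was 0.882 (95% CI 0.858 to 0.906).

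The annotation holds a form of *lin-41* with a longer 3′ end, which starts at 9334850 on the genome, and one with a shorter 3′ end, which starts at 9335772. The longer form had 104 TPM in DG3913, against 101 TPM in N2 and 87.2 TPM in BS1080. The shorter form had 42.2 TPM in DG3913, against 104 TPM in N2 and 87.5 TPM in BS1080. The shorter form therefore held 28.8% of *lin-41* TPM in DG3913, 50.8% in N2 and 50.1% in BS1080. These shares are kallisto's division of reads that both forms share, and an interval for that division was not computed.

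Genes next to *lin-41* had ratios above 1 with one exception. *cbl-1*, the nearest gene on one side, had 29.3 TPM in DG3913 and 18.7 in N2 (ratio 1.57), and *F26H9.5*, farther on that side, had a ratio of 1.70. On the other side *M04C9.3* had a ratio of 1.94, *M04C9.4* of 1.55 and *ppfr-1* of 1.07. None of these 5 was called. *hsp-70*, a heat shock gene between *F26H9.5* and *cbl-1*, had 9.36 TPM in DG3913, against 28.4 TPM in N2 and 10.8 TPM in BS1080, and was called lower than in N2 with a ratio of 0.330 (95% CI 0.283 to 0.384). DG3913 and BS1080 lay close together for *hsp-70* and N2 above both.

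The other TRIM-NHL genes lay near the same level in both strains, and 0 of the 5 compared genes, *lin-41* included, were called. *nhl-2*, a cofactor of microRNA action, had 98.1 TPM in DG3913 and 89.2 in N2 (ratio 1.10), while *nhl-3* had 9.11 in DG3913 and 12.2 in N2 (ratio 0.746). mRNAs known to be bound or repressed by LIN-41 had ratios from 1.16 to 2.86. Among those of oocytes, *cdc-25.3*, a cell cycle phosphatase, had 55.1 TPM in DG3913, against 27.4 TPM in N2 and 31.8 TPM in BS1080, and was the only one of 6 called, with a ratio of 2.01 (95% CI 1.74 to 2.33). The origin recognition gene *orc-1* had 117 TPM in DG3913 and 65.1 in N2 (ratio 1.79), the germ granule gene *meg-1* had 126 in DG3913 and 78.5 in N2 (ratio 1.61), and *spn-4*, which encodes an RNA-binding protein, had 739 in DG3913 and 637 in N2 (ratio 1.16). All 6 had ratios above 1, with a list median of 1.51, against 1.33 over all compared genes. With ratios divided by that overall median, *cdc-25.3* was no longer called, the list median was 1.13 and *spn-4* had a ratio of 0.870, below 1.

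Of the somatic targets, *lin-29*, the transcription factor at the end of the heterochronic pathway, had 6.60 TPM in DG3913, against 2.31 TPM in N2 and 2.52 TPM in BS1080. Its ratio to N2 was 2.86 (95% CI 1.96 to 4.18), from 33.6 estimated counts in N2. *mab-10*, the cofactor of LIN-29, had 10.9 TPM in DG3913 and 9.21 in N2 (ratio 1.18, 95% CI 0.965 to 1.45). Of 14 heterochronic genes 2 were called higher, *lin-29* and *lin-46*, and 0 lower, a share of 14.3% higher against 15.5% of all compared genes, with a median ratio of 1.11 (0.834 when divided by the median of all genes). *lin-46* was low in every library, with 23 counts in DG3913, against 5 in N2 and 9 in BS1080, and its interval was wide (ratio 3.78, 95% CI 1.44 to 9.94). *lin-28*, which encodes an RNA-binding protein that acts early in the pathway, had 43.7 TPM in DG3913 and 39.0 in N2 (ratio 1.12), and the nuclear receptor gene *daf-12* had 7.05 in DG3913 and 4.86 in N2 (ratio 1.45).

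Collagen genes differed between the strains in both directions. The 159 *col* genes found, nearly all for cuticle collagens, summed to 30013 TPM in DG3913, against 51677 TPM in N2 and 44861 TPM in BS1080. Of 103 compared, 22 were higher in DG3913, 27 lower and 54 neither, with a median ratio of 0.678. With ratios divided by the median of all genes, 14 were higher and 49 lower. The lower genes made up 27 of all 86 genes called lower. The 18 *col* genes over 1000 TPM in N2 had ratios of 0.109 to 0.739, and 11 were called lower. They were chosen by their N2 level, which favours low ratios, so this is a description, and *col-117*, over 1000 TPM in DG3913 alone and called higher, falls outside the choice. Together the 18 genes had 19574 TPM in DG3913, against 42891 TPM in N2 and 36295 TPM in BS1080.

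Of these 18 genes, the lowest ratios were those of *col-81*, *col-129* and *col-139*. *col-81* (chromosome II) had 123 TPM in DG3913, against 1121 TPM in N2 and 1215 TPM in BS1080, a ratio to N2 of 0.109 (95% CI 0.103 to 0.116). *col-129* (chromosome IV) had 144 TPM in DG3913, against 1243 TPM in N2 and 1213 TPM in BS1080. *col-139* (chromosome V) had 183 TPM in DG3913, against 1389 TPM in N2 and 1472 TPM in BS1080. In all 3 genes N2 and BS1080 lay near each other and DG3913 far below. Among genes of higher level, *col-122* had 810 TPM in DG3913 and 2761 in N2 (ratio 0.293), *col-140* had 1832 in DG3913 and 4662 in N2 (ratio 0.393), and *col-124*, the most abundant in N2, had 2452 in DG3913 and 5072 in N2 (ratio 0.483). *col-19*, a marker of the adult epidermis that is activated through LIN-29, had 1103 TPM in DG3913, against 1983 TPM in N2 and 1781 TPM in BS1080, and was not called with a ratio of 0.556 (95% CI 0.543 to 0.570). On chromosome I the neighbours *col-7* and *col-62* were both lower, *col-7* with 2.56 TPM in DG3913, against 27.4 TPM in N2 and 59.2 TPM in BS1080.

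Of the 22 *col* genes higher in DG3913, 17 had under 100 TPM in N2, as had 69 of all 103 compared. A call by a high ratio to N2 also favours a low level in N2. The 22 genes summed to 4927 TPM in DG3913, against 1053 TPM in N2 and 1145 TPM in BS1080. *col-176* (chromosome X) had 90.0 TPM in DG3913, against 2.64 TPM in N2 and 1.38 TPM in BS1080, a ratio of 34.1 (95% CI 22.7 to 51.1). *col-10* (chromosome V) had 471 TPM in DG3913, against 63.4 TPM in N2 and 82.5 TPM in BS1080 (ratio 7.42, 95% CI 6.76 to 8.15). *col-117* reached the highest level of this set, with 1221 TPM in DG3913, against 189 TPM in N2 and 176 TPM in BS1080 (ratio 6.44). Its neighbour on chromosome IV, *col-3*, had 583 TPM in DG3913, against 107 TPM in N2 and 148 TPM in BS1080. BS1080 was near N2 in summed level for both sets. The median ratio of the 22 genes called higher was 4.02 against N2 and 3.42 against BS1080, and that of the 27 called lower was 0.323 against N2 and 0.300 against BS1080. Both ratios share the DG3913 library and are given side by side only.

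**Figure D2:**
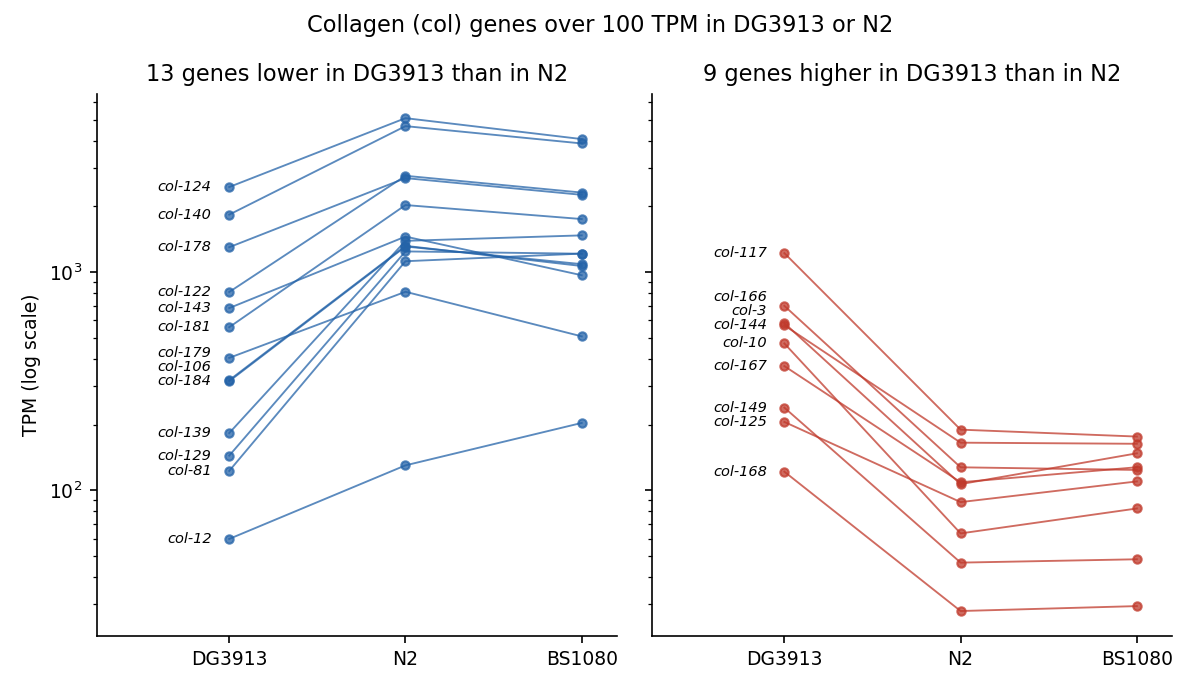
TPM (log scale) of the *col* genes over 100 TPM in DG3913 or N2, with the genes called lower in DG3913 on the left and those called higher on the right, and 1 point for each of DG3913, N2 and BS1080. The points of N2 and BS1080 lie near each other for most genes, while DG3913 lies below them on the left, as for *col-81* at 123 TPM, and above them on the right, as for *col-117* at 1221 TPM.

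None of the body form collagen genes or molting genes listed was called lower than in N2. Of 16 compared collagen genes with a mutant body form, such as *rol-6* and the *dpy* genes, 2 were higher and 0 lower, with a median ratio of 1.13 against N2 and 0.774 against BS1080, where all compared genes had 1.33 and 1.31. The 3 most abundant of them were not called: *dpy-4* had ratios of 0.851 to N2 and 0.680 to BS1080, *dpy-13* of 0.925 and 0.657, and *dpy-5* of 0.887 and 0.586. *rol-6* had 4.52 TPM in DG3913 and 2.17 in N2 (ratio 2.09, 95% CI 1.27 to 3.41). Genes used in molting were low in these adults, with a median level of 3.04 TPM. Of all compared genes 15.5% were called higher, and 22.7% of those with a mean of 2 to 5 TPM. Of the 18 molting genes, 7 were called higher and 0 lower (38.9% higher, median 1.65), of which 2 remained with ratios divided by the median of all genes. They included *nas-36*, which encodes a protease needed to shed the old cuticle, with 1.38 TPM in DG3913, against 0.453 in N2 and 0.529 in BS1080, and *qua-1*, a hedgehog-related gene, with 1.84 TPM in DG3913, against 0.521 in N2 and 1.10 in BS1080. The nuclear receptor gene *nhr-25*, needed for molting, had 1.17 TPM in DG3913, against 0.457 in N2 and 0.174 in BS1080. *nhr-23*, the more abundant of the molting regulators, had 39.6 TPM in DG3913 and 32.5 TPM in N2, and its ratio of 1.22 was below the median of all genes.

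The p38 MAP kinase genes were higher together. *pmk-1*, *pmk-2* and *pmk-3* encode kinases of stress and immune signalling and lie next to each other on the plus strand of chromosome IV, downstream of *islo-1*. *pmk-1* had 34.9 TPM in DG3913, against 6.38 TPM in N2 and 7.96 TPM in BS1080 (ratio to N2 5.47, 95% CI 4.44 to 6.74). *pmk-2* had 23.8 TPM in DG3913, against 3.13 TPM in N2 and 3.42 TPM in BS1080. *pmk-3* had 37.5 TPM in DG3913, against 4.17 TPM in N2 and 7.74 TPM in BS1080 (ratio to N2 8.99, 95% CI 7.10 to 11.4). *islo-1* had 13.3 TPM in DG3913, against 1.65 TPM in N2 and 2.26 TPM in BS1080. In all 4 genes DG3913 stood above both other strains by at least 4-fold. The run spans 8136455 to 8151246. On its left the complex III gene *isp-1* had 264 TPM in DG3913 and 272 in N2 (ratio 0.971). On its right *faah-2*, an amide hydrolase gene, had 75.6 in DG3913 and 41.6 in N2 (ratio 1.82), and beyond it *faah-1* had 21.1 in DG3913 and 19.1 in N2. Of these nearest flanking genes only *sph-1*, second on the left, was called higher, with 20.1 TPM in DG3913 and 9.60 in N2 (ratio 2.09). Farther left, *irld-8* had 27 counts in DG3913, against 5 in N2 and 42 in BS1080, and was called higher than in N2 (ratio 4.42, 95% CI 1.70 to 11.5), as was *F42G8.8* beside it (3.33 TPM in DG3913 and 1.66 in N2). Neither was called against BS1080.

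**Figure D3:**
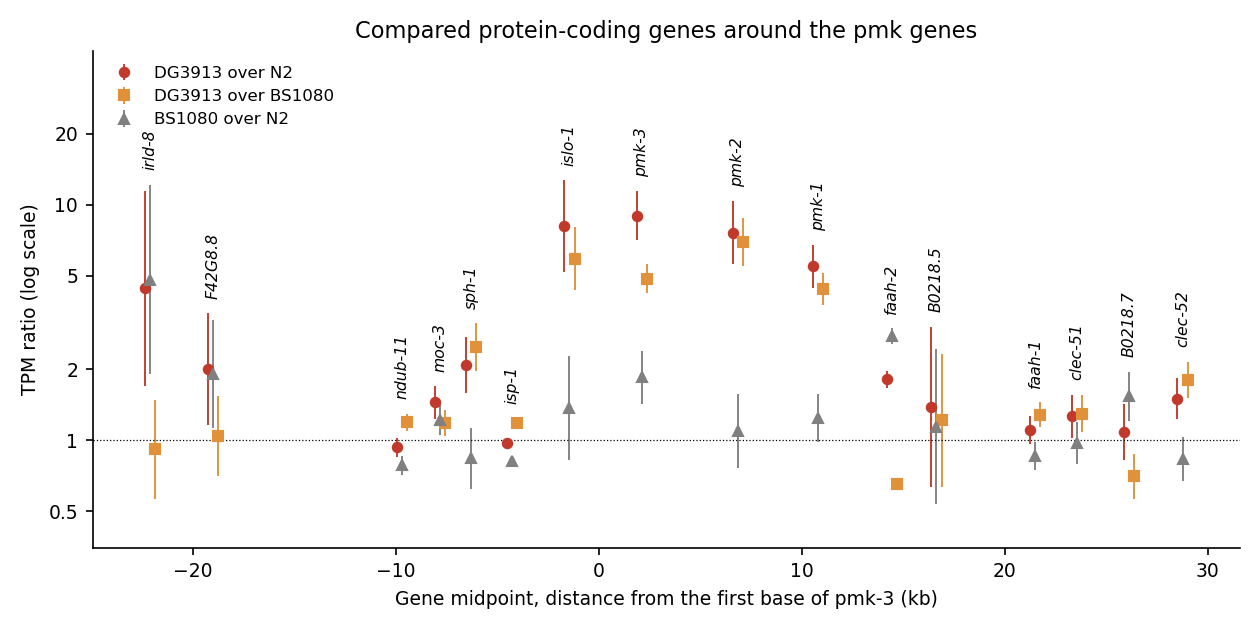
TPM ratio (log scale) of compared protein-coding genes around the *pmk* genes on chromosome IV, by distance of the gene midpoint from the first base of *pmk-3* in kb, with 95% counting intervals, for DG3913 over N2, DG3913 over BS1080 and BS1080 over N2. The 4 genes from *islo-1* to *pmk-1* lie between 5.47 and 8.99 against N2, above the genes on both sides.

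Immune gene lists were less uniform. Of 58 compared lysozyme and antimicrobial genes 16 were higher in DG3913 and 0 lower (27.6% higher, median 1.41), and of 86 C-type lectin genes 10 were higher and 0 lower (11.6%, median 1.22), against 15.5% of all compared genes. These counts were 5 and 2 with ratios divided by the median of all genes. Their abundant members were not called: the antimicrobial *spp-5* had 1403 TPM in DG3913 and 1011 in N2 (ratio 1.39), the lysozyme *ilys-5* had 1379 in DG3913 and 896 in N2 (ratio 1.54), and the lectin *clec-63* had 1071 in DG3913 and 1232 in N2 (ratio 0.869). The *pals* genes, several of which are induced by intracellular pathogens, included 3 higher and 1 lower of 9. *pals-26* was the lower one, with 0.795 TPM in DG3913, against 4.23 TPM in N2 and 8.59 TPM in BS1080 (ratio to N2 0.188, 95% CI 0.108 to 0.326), while *pals-24* had 16.8 TPM in DG3913, against 5.66 TPM in N2 and 8.36 TPM in BS1080.

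Histone genes differed between groups of neighbours in the genome. The 83 histone genes found summed to 91361 TPM in DG3913, against 138537 TPM in N2 and 109121 TPM in BS1080. Of all compared genes 15.5% were higher and 0.710% lower, with a median ratio of 1.33. Of the 66 histone genes compared, 18 were higher (27.3%) and 5 lower (7.58%), with a median ratio of 1.28. With ratios divided by the median of all genes, 16 were higher and 11 lower. These counts take copies that share reads as separate genes, with *his-57* and *his-65* among those higher. Core histone genes lie in clusters of near-identical copies, and kallisto may divide their shared reads differently between libraries, so groups of neighbours were summed. Such sums do not cover reads shared by copies in different groups, as *his-47* and *his-65*. On chromosome II (13817759 to 13827709) all 10 compared genes were higher in DG3913, and the group summed to 11209 TPM in DG3913, against 1681 TPM in N2 and 3173 TPM in BS1080, a summed ratio of 6.67. *his-11* had 4942 TPM in DG3913, against 804 TPM in N2 and 1223 TPM in BS1080. *his-16* had 2168 TPM in DG3913, against 302 TPM in N2 and 607 TPM in BS1080, and *his-25* had 1265 in DG3913, against 157 in N2 and 273 in BS1080. *his-12* and *his-43* had equal values within each library, as copies that share all their reads do, and both had a ratio of 6.55. The other 5 genes of the group stood apart less from BS1080. The copies *his-10*, *his-14* and *his-26* summed to 284 TPM in DG3913, against 10.9 TPM in N2 and 376 TPM in BS1080, and *his-9* and *his-13* to 118 TPM in DG3913, against 36.4 TPM in N2 and 96.9 TPM in BS1080.

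The group on chromosome IV from 11323885 to 11341495 went the other way, with 4 of 6 genes lower and a summed ratio of 0.457. It held the most abundant histone gene, *his-58*, with 18269 TPM in DG3913, against 42739 TPM in N2 and 25517 TPM in BS1080 (ratio to N2 0.427), and *his-47*, with 8339 TPM in DG3913, against 18922 TPM in N2 and 11776 TPM in BS1080. For both genes BS1080 lay between DG3913 and N2. *his-57* in this group and *his-65* elsewhere on chromosome IV had 1051 and 1046 TPM in DG3913 and at most 3.33 TPM in N2, but they are copies of *his-47* and the 3 genes together had 10436 TPM in DG3913, against 18925 TPM in N2 and 16781 TPM in BS1080, a ratio of 0.551. *his-63*, also on chromosome IV, had 11968 TPM in DG3913 and 21637 in N2 and was not called (ratio 0.553). Another group of chromosome IV, *his-29* to *his-34* (8331044 to 8336340), had 3 of 6 genes higher and summed to 1438 TPM in DG3913, against 683 TPM in N2 and 507 TPM in BS1080, a summed ratio of 2.11. Groups of at least 3 genes on chromosome V had summed ratios between 0.886 and 1.35.

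**Figure D4:**
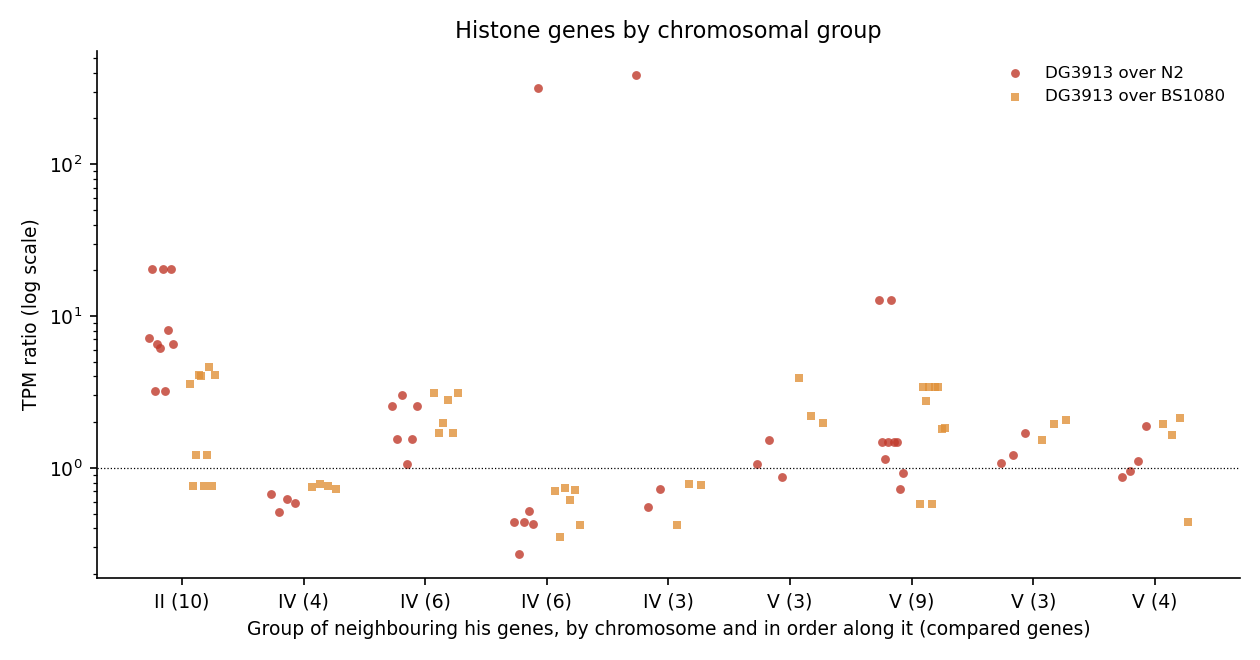
TPM ratio (log scale) of DG3913 over N2 and of DG3913 over BS1080 for each compared histone gene in groups of at least 3 neighbours, in order along each chromosome. All 10 genes of the chromosome II group lie above 3 against N2, and the abundant *his-58* and *his-47* of chromosome IV lie at 0.427 and 0.441. *his-57* and *his-65*, at the top, share reads with *his-47*.

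A list of heat shock factor targets and other chaperone genes was, at the median, lower in both tagged strains than in N2. Of 13 compared genes of this list, 0 were higher in DG3913 and 4 lower. The median ratio was 0.611 against N2, 0.978 for DG3913 over BS1080 and 0.607 for BS1080 over N2. The list includes the chaperone genes *hsp-60*, *hsp-6* and *hsp-4*, with ratios to N2 of 0.818, 1.08 and 1.05. Whether heat shock factor controls these chaperone genes was not checked here. The median of 0.611 equals the ratio of the near-identical pair *hsp-16.48* and *hsp-16.49*. Besides *hsp-70*, *F44E5.4*, a gene of the HSP70 family, had 20.6 TPM in DG3913, against 66.7 TPM in N2 and 22.7 TPM in BS1080 (ratio to N2 0.309). The small heat shock gene *hsp-16.41* had 14.5 TPM in DG3913, against 35.5 TPM in N2 and 21.5 TPM in BS1080. The near-identical *hsp-16.1* and *hsp-16.11* summed to 116 TPM in DG3913, against 222 TPM in N2 and 112 TPM in BS1080, a ratio of 0.524 (95% CI 0.447 to 0.615), so the call of *hsp-16.11* alone as lower does not hold for the pair. The abundant chaperones were nearer to equal, with 1434 TPM of *hsp-90* in DG3913 and 2002 in N2 (ratio 0.716) and 1946 TPM of *hsp-1* in DG3913 and 2273 in N2 (ratio 0.856). Over the whole heat shock list of 51 genes, 10 were higher (19.6%) and 3 lower (5.88%), against 15.5% and 0.710% of all compared genes. Of those higher, 9 were *dnj* genes, which encode DnaJ proteins, cochaperones of HSP70. The *dnj* genes compared numbered 29, and with ratios divided by the median of all genes 2 of them were higher. *dnj-22* had 74.5 TPM in DG3913, against 24.1 TPM in N2 and 37.9 TPM in BS1080 (ratio 3.09).

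Few genes of the germline and the oocyte, where LIN-41 acts in adults, were called, and few were called among all genes of like level, with 5.36% higher at a mean of 50 to 100 TPM and 5.01% at 200 to 500 TPM. Of 23 oocyte RNA-binding protein genes 0 were called in either direction (median 1.02), of 15 eggshell genes 0 (median 0.969), and of 7 yolk genes 0 (median 1.02). *vit-6*, a vitellogenin, had 6637 TPM in DG3913 and 7074 in N2 (ratio 0.938), *cey-2*, a Y-box protein gene, had 1428 in DG3913 and 1502 in N2 (ratio 0.951), and *cpg-1*, an eggshell component, had 1800 TPM in both. Of 18 oocyte-to-embryo and cell cycle genes only *cdc-25.3* was called. Meiotic genes had a median ratio of 1.43, with 20 of 21 above 1 but only *spo-11*, which makes the meiotic double-strand breaks, called higher (40.4 TPM in DG3913 and 14.8 in N2, ratio 2.74). Among germ cell fate genes *tra-2*, a sex determination gene, was the only one called, with 51.3 TPM in DG3913 and 25.5 in N2 (ratio 2.01). The 12 P granule genes gave 0 calls and a median of 1.17. Early zygotic genes gave 6 higher and 0 lower of 15 (median 1.68), and all 6 had at most 6.34 TPM in DG3913. Of all genes 15.5% were higher, and 27.2% of those with a mean of 1 to 2 TPM. Only 2 of the 6 stayed higher with ratios divided by the median of all genes, *hlh-1* not among them. *hlh-1*, the muscle fate factor, had 2.18 TPM in DG3913, against 0.683 in N2 and 1.36 in BS1080, and *sdz-10*, controlled by SKN-1, had 2.16 TPM in DG3913, against 0.507 in N2 and 0.232 in BS1080.

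Lists of sperm genes differed from each other. The 27 compared major sperm protein genes gave 0 calls and a median of 0.945 against N2, and 0.775 against BS1080. The list of small sperm protein families gave 13 higher of 27 and 0 lower (median 1.97 against N2 and 1.07 against BS1080). Of all genes 15.5% were higher. The 13 included 9 of the 11 compared *nspc* genes, whose expression in sperm was not checked here. With ratios divided by the median of all genes, 6 of the 27 and 5 of the *nspc* genes were higher. *nspc-20* had 126 TPM in DG3913, against 28.3 TPM in N2 and 64.2 TPM in BS1080. *spe-11*, a sperm factor needed by the embryo, had 11.6 TPM in DG3913, against 4.12 TPM in N2 and 9.37 TPM in BS1080 and was the only one of 14 other sperm genes called. For both named genes N2 was the lowest library and BS1080 lay in between.

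**Figure D5:**
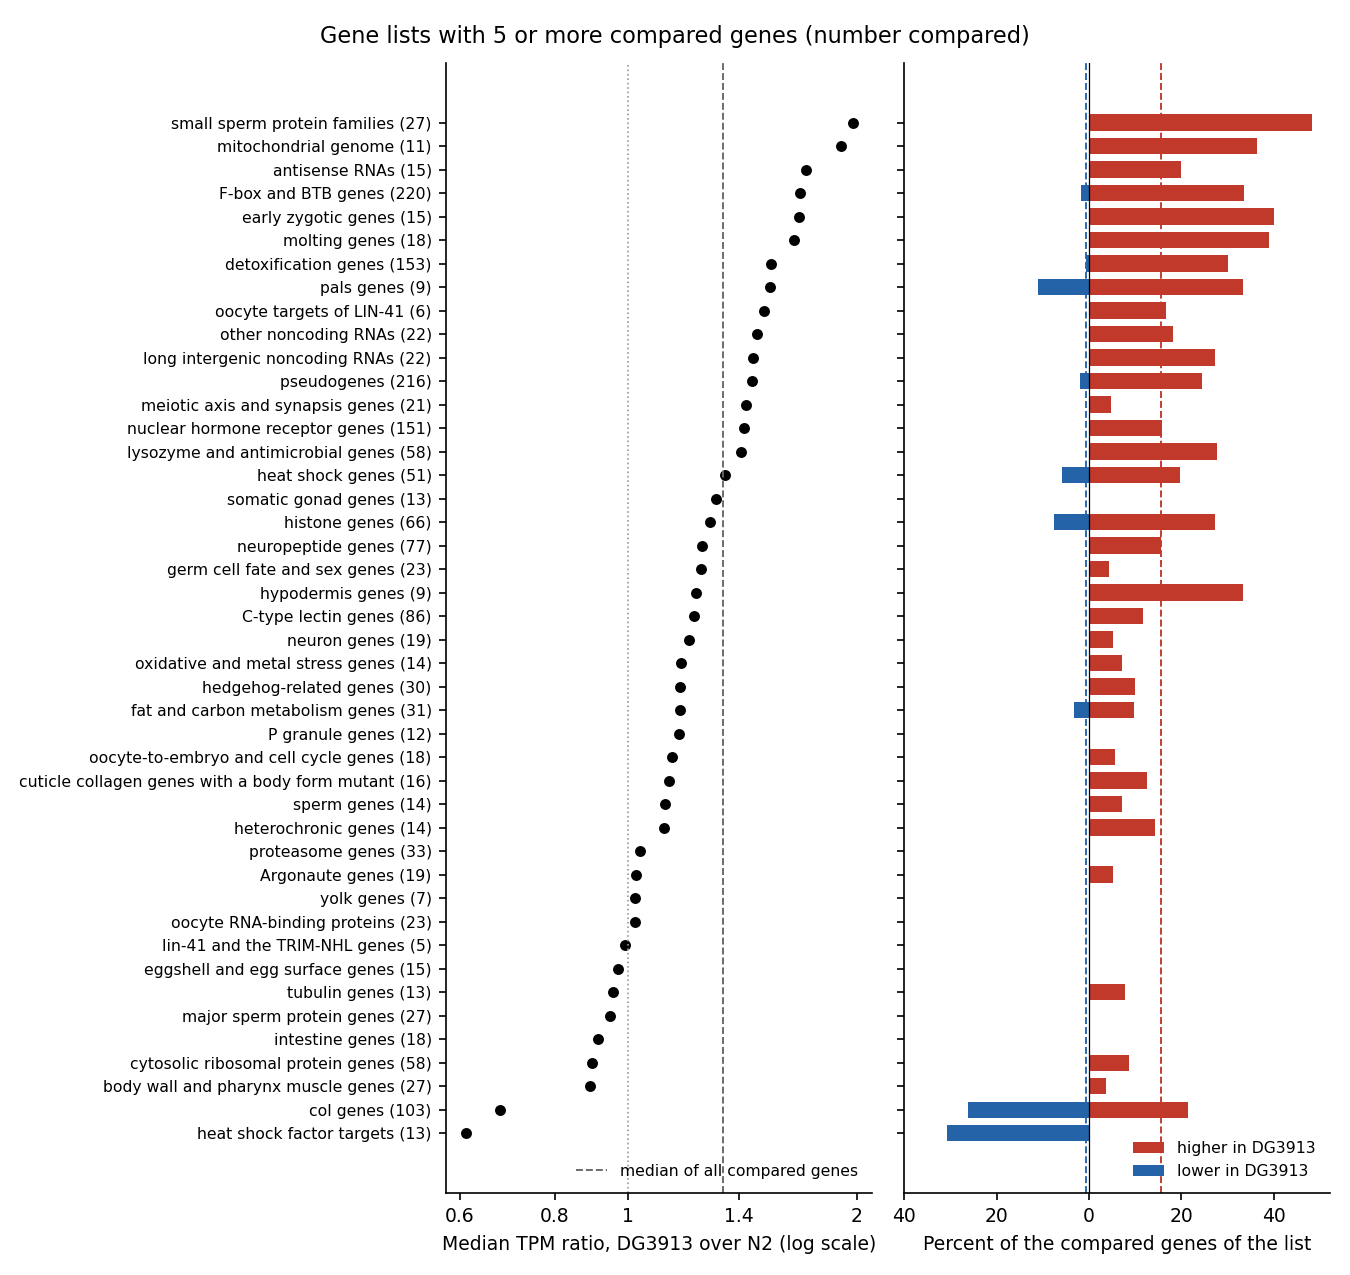
Median TPM ratio of DG3913 over N2 (left, log scale) and percent of compared genes called higher or lower (right) for each gene list with at least 5 compared genes. The dashed line is the median of all compared genes at 1.33. The *col* genes at 0.678 and the list labelled heat shock factor targets, which includes other chaperone genes, at 0.611 lie farthest below it.

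Somatic tissue lists had medians below that of all genes, as had the oocyte RNA-binding protein, eggshell, yolk and P granule lists. The median level was 335 TPM for the muscle list and 190 TPM for the intestine list. All genes had a median ratio of 1.06 at 200 to 500 TPM and 1.13 at 100 to 200 TPM. Muscle genes gave 1 higher and 0 lower of 27 (median 0.890): the body wall myosin *unc-54* had 849 TPM in DG3913, against 1344 TPM in N2 and 956 TPM in BS1080, and paramyosin *unc-15* had 448 in DG3913, against 663 in N2 and 524 in BS1080. Intestine genes gave 0 calls of 18 (median 0.912), although the transcription factor *elt-2* had 5.89 TPM in DG3913 and 3.21 in N2 (ratio 1.83). Neuron genes gave 1 higher of 19 (median 1.20) and neuropeptide genes 12 of 77 (15.6%, near the 15.5% of all genes, median 1.25), or 3 with ratios divided by the median of all genes. Somatic gonad genes gave 0 of 13 (median 1.31). Hypodermis genes gave 3 higher and 0 lower of 9 (33.3% higher, median 1.23), or 1 higher and 1 lower with ratios divided by the median of all genes. Detoxification genes gave 46 higher and 1 lower of 153 (30.1% higher, against 15.5% of all genes), with a median of 1.54 against N2 and 1.48 against BS1080. Among them *gst-4*, a glutathione transferase gene activated by SKN-1, had 18.6 TPM in DG3913, against 6.60 TPM in N2 and 12.6 TPM in BS1080 (ratio 2.82), and the one lower was *cyp-35A3*, a cytochrome P450, with 1.63 TPM in DG3913, against 4.61 in N2 and 0.804 in BS1080. F-box and BTB genes, a large family of ubiquitin ligase adaptors, gave 74 higher and 4 lower of 220 (33.6% higher, median 1.68). Of these, 184 had a mean of under 10 TPM, as had 91 of the 153 detoxification genes. At that level the median of all genes was also higher. Of all genes 18.5% were called higher at a mean of 5 to 10 TPM and 27.2% at 1 to 2 TPM. With ratios divided by the median of all genes, 31 F-box and BTB genes were higher and 5 lower, and 20 detoxification genes higher and 1 lower.

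All 11 compared genes of the mitochondrial genome had a ratio of 1.00 or more, with a median of 1.91 against N2 and 1.64 against BS1080, and 4 were called higher, where 15.5% of all genes were. With ratios divided by the median of all genes only *ND3* was, which had 3 counts in N2. *COX2* had 1988 TPM in DG3913, against 880 TPM in N2 and 922 TPM in BS1080. *COX3* had 1847 in DG3913, against 874 in N2 and 900 in BS1080, and *CYTB* 1640 in DG3913, against 802 in N2 and 907 in BS1080. *COX1*, the most abundant, had 2349 TPM in DG3913, against 1514 TPM in N2 and 1445 TPM in BS1080 and was not called (ratio 1.55). Median ratios over the nuclear chromosomes lay between 1.29 and 1.37.

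Ribosomal protein genes had a median ratio of 0.895, with 5 higher and 0 lower of 58. Those higher were lower in N2 than in both other strains. *rps-29* had 568 TPM in DG3913, against 4.67 TPM in N2 and 362 TPM in BS1080, and the N2 level rests on 3 counts (ratio 122, 95% CI 39.1 to 379). *rpl-36* had 4168 TPM in DG3913, against 876 TPM in N2 and 2850 TPM in BS1080, and *rps-21* had 203 counts in DG3913, against 20 in N2 and 281 in BS1080. Other genes with the same pattern were *Y119D3B.21*, with 311 counts in DG3913, against 16 in N2 and 393 in BS1080, and the spliceosomal *snr-7*, with 136 TPM in DG3913, against 15.7 in N2 and 76.3 in BS1080. Transcript length moved with the ratio: the median was 1.56 for genes whose longest transcript has 300 to 500 nt and 1.21 for those over 5000 nt, and the 300 to 500 nt genes were also higher in BS1080 than in N2 (median 1.15). The mean fragment length implied by the deposited effective lengths was 301 nt for DG3913, 313 nt for N2 and 285 nt for BS1080. The part of fragment length in these ratios was not tested.

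Noncoding classes added few genes. Long intergenic RNAs gave 6 higher and 0 lower of 22 (median 1.46), and *linc-7* had 20.1 TPM in DG3913, against 9.24 TPM in N2 and 8.29 TPM in BS1080. Antisense RNAs gave 3 higher of 15, but whether the counting used strand is not settled in the sources used here, so reads of an antisense RNA and its partner cannot be told apart. Pseudogenes gave 53 higher and 4 lower of 216 (median 1.46). The shares higher were 27.3%, 20% and 24.5%. Of all genes 15.5% were higher, with 27.2% at a mean of 1 to 2 TPM and 22.7% at 2 to 5 TPM. The median level of each of these classes lay between 1 and 5 TPM. With ratios divided by the median of all genes, 3 long intergenic RNAs were higher and 0 lower. Of antisense RNAs 0 were then higher and 1 lower, and of pseudogenes 25 higher and 9 lower. The 130 small nuclear RNAs, 637 transfer RNAs, 257 miRNA genes and 15365 piRNA genes had no count in DG3913 or N2.

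Genes outside both other strains were few. Of 12063 genes compared in both, 62 were higher in DG3913 than in N2 and BS1080 by at least 4-fold each (0.514%), and 14 lower (0.116%). Besides the *col*, *pmk* and histone genes above, *F57H12.6* had 30.1 TPM in DG3913, against 1.51 TPM in N2 and 2.73 TPM in BS1080 (95% CI of the ratio to N2 9.87 to 40.6). *lbp-8*, a lysosomal lipid chaperone gene, had 10.5 TPM in DG3913, against 1.76 TPM in N2 and 1.27 TPM in BS1080. *ptr-19*, a patched-related gene, had 1.44 TPM in DG3913, against 0.0933 in N2 and 0.182 in BS1080 (ratio to N2 15.4, 95% CI 4.83 to 49.3, from 3 counts in N2). *dod-21*, a gene downstream of the insulin pathway factor DAF-16, had 48 counts in DG3913 and 0 in both other libraries, at least 13.2-fold higher than in N2 with 3 counts taken as the floor of the library. Its neighbour on chromosome IV, *cld-1*, had the reverse, with 0 counts in DG3913, against 34 in N2 and 21 in BS1080. Whether *dod-21* and *cld-1* share reads that kallisto divided differently between libraries was not tested. Neither difference can therefore be told apart from such a division.

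Among the genes lower than in both strains, *tiar-2*, which encodes an RNA-binding protein of the TIA-1 family, had 5.12 TPM in DG3913, against 27.2 TPM in N2 and 27.6 TPM in BS1080 (ratio to N2 0.188, 95% CI 0.153 to 0.230). N2 and BS1080 were nearly equal for this gene. *haf-6*, a half-molecule ABC transporter gene needed for efficient RNA interference, had 5.41 TPM in DG3913, against 27.1 TPM in N2 and 20.7 TPM in BS1080 (ratio to N2 0.199), and lay just short of 4-fold against BS1080 with a ratio of 0.261. *pals-26* and 6 *col* genes, *col-7*, *col-81*, *col-88*, *col-129*, *col-137* and *col-139*, were also in this set. The most abundant gene lower than N2 outside the *col* and histone genes was *epic-2*, with 581 TPM in DG3913, against 1552 TPM in N2 and 968 TPM in BS1080 (ratio to N2 0.374).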

How the data were processed

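The authors demultiplexed the reads with bcl2fastq and pseudo-aligned them as single-end reads with kallisto 0.43.1 to the transcriptome of WBcel235 (Ensembl release 81) with the transgene of the strain. They deposited, for each transcript, an estimated count, which is not normalized, and a TPM that sums to 1000000 over the whole index. Here 22 ribosomal RNA genes and 3 entries overlapping them were removed, TPM were rescaled to 1000000, and the transcripts of a gene were summed in both units, *lin-41* with its tagged transcripts and, in BS1080, *gld-1* with its transgene. Names came from RefSeq for 45563 genes and from Ensembl for 10, and the other 1150 kept their sequence names.

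Ratios have 95% intervals from the Poisson error of both counts on the log scale, and a count under 3 was set to 3. No model or test was fitted, since each strain has 1 library. The genes called and the lists were described by counts and medians. Genes named were *lin-41* and its neighbours, the 12 called protein-coding genes with the highest and the lowest ratio among those with at least 100 counts where they are higher, the 10 most abundant called genes of each direction, 3 abundant and 2 extreme members of each of 51 lists, and up to 12 genes of each direction outside both other strains by 4-fold. Tissue markers were named too. Other genes named were chosen after their values were seen. The samples, genes and lists were chosen with earlier results of these data known. Alternatives for the unit, scaling, RNAs in the total, filter, fold and interval were computed. The ratio and its calls were tested on simulated data. Tables were read with pandas 2.3.3 in Python 3.11.15, ratios computed with numpy 2.4.6 and scipy 1.17.1, and plots drawn with matplotlib 3.10.9. Strand use and gene sequences were not analysed here.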

Additional observations from a re-analysis of the deposited data

How the results depend on the processing

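Dividing ratios by their median made that median 1, left 699 genes higher and 286 lower, put 90.8% within 2-fold and gave *lin-41* a ratio of 0.536. With at least 100 counts, 981 genes were higher and 47 lower, 88.6% lay within 2-fold and R2 was 0.931. A 4-fold limit left 263 higher and 20 lower, and intervals wholly past 2-fold left 483 and 38. BS1080 in place of N2 gave 233 lower. As CPM, R2 was 0.953, 83.9% lay within 2-fold and *lin-41* had 0.882. Without a filter R2 was 0.920 and 81.2% lay within 2-fold. Keeping ribosomal RNA put 85.8% within 2-fold and *lin-41* at 0.672, and TPM above 1 in both libraries put 85.7% within 2-fold. No named gene that was called changed sign under the alternatives run, but ratios between 1 and 1.33 fall below 1 when divided by the median, as *spn-4* (0.870), *mab-10* (0.886) and the median of the heterochronic genes (0.834). Under all of them, 16 lists with medians above that of all genes in the analysis reported became 11 to 18. R2 was not recomputed under the median scaling or with TPM above 1 in both, which leave it as it is by construction. No paired analysis was possible because each strain has 1 library. Depth limits genes of few counts, as *ND3* and *rps-29* in N2.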

Other observations

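Runs of at least 3 neighbouring genes called in the same direction, with ratios of at least 3 where higher, numbered 13. The *pud* genes form one on chromosome V from 2323014 to 2330930. The identical *pud-1* copies summed to 1579 TPM in DG3913, against 708 TPM in N2 and 1338 TPM in BS1080 (ratio to N2 2.23). The *pud-2* copies summed to 1491 TPM in DG3913, against 479 TPM in N2 and 985 TPM in BS1080, a ratio of 3.11. *pud-3* had 127 TPM in DG3913, against 21.6 TPM in N2 and 93.7 TPM in BS1080, and *pud-4* had 49.6 TPM in DG3913, against 9.80 TPM in N2 and 45.7 TPM in BS1080. N2 was the lowest library for each, and BS1080 lay near DG3913 for *pud-3* and *pud-4*.

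On chromosome II the copies *F45D11.15* and *F45D11.16* summed to 12.4 TPM in DG3913, against 0 counts in N2 and 12.4 TPM in BS1080, so that N2 was the library that stood apart. *btb-11* in the same run was instead higher in DG3913 than in both, with 4.96 TPM in DG3913, against 1.19 TPM in N2 and 1.13 TPM in BS1080. On chromosome X *col-167*, *col-168* and *col-169* lie side by side from 6323297 to 6330127 and were all higher in DG3913, with ratios to N2 of 3.41, 4.35 and 3.69.

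Among gene families by name, *math* genes gave 12 higher of 19 (median ratio 2.35), *sdz* genes, named for their control by SKN-1, gave 9 of 19 (median 2.40) and *cyp* genes 20 of 47 (median 1.71), against 15.5% of all compared genes. With ratios divided by the median of all genes, 5 *math*, 5 *sdz* and 12 *cyp* genes were higher. Among all genes with a mean of 1 to 2 TPM, 27.2% were higher without that division. These families were picked after their values were seen.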
